A study of Camelus dromedarius with 10 samples.

Results

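Transcripts of 5 complement genes, C1QA, C1QB, C1QC, CFI and VSIG4, were followed in the supraoptic nucleus (SON) of control and water-deprived (WD) dromedary camels. They are 5 of the 22444 gene IDs counted, and were found by the Ensembl ID that the study's supplementary tables pair with each symbol (for CFI, through an NCBI gene number). Total RNA of the rostral SON, punched from frozen hypothalamus of 10 male camels aged 4 to 5 years, was depleted of ribosomal RNA and sequenced. The 5 control camels had free access to food and water, and the 5 WD camels had food but no water for 20 days. Libraries are named by group and camel number, CON2, CON3, CON4, CON5 and CON13 for control and WD6, WD7, WD8, WD9 and WD15 for WD. Each library comes from another camel and holds whole tissue punches, so neurones, glia, vessels and blood are mixed in it, and fewer cells of a type cannot be told apart from less RNA per cell.

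The complement system is a cascade of secreted proteins that tags material for removal. C1q, its first component, is built from A, B and C chains encoded by C1QA, C1QB and C1QC, binds its targets through globular heads, and in brain is made mainly by microglia and macrophages. Together with the proteases C1r and C1s it starts the classical pathway, which leads to cleavage of C3, the central component. CFI encodes complement factor I, a serine protease that degrades activated C3 and C4 fragments with the help of cofactors and so restrains the cascade. VSIG4 encodes the complement receptor of the immunoglobulin superfamily on macrophages, which binds C3 fragments and clears tagged particles.

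C1QB, C1QC and C1QA lie next to each other in this order in the RefSeq annotation of the assembly mCamDro1.pat, with no gene between them and EPHA8 after C1QA. In the same annotation CFI overlaps a tRNA gene, TRNAP-AGG, and VSIG4 overlaps no other gene. The counts were made on another assembly, Camdro2, so no coordinates are given. The only sequences of a member in the sources used here are the primers the study designed for qRT-PCR of C1QB, each of 20 bases and written 5′ to 3′, shown to say which transcript its authors also chose for a second assay.
C1QB forward primer: ccaacaggaactacgagcct
C1QB reverse primer: gagctggcatggtaggtgaa

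Depth bears on all values that follow. The libraries held between 1665098 and 8126641 counted read pairs, but 5 gene IDs took between 27.7% and 76.1% of them, most of all in CON13 and WD6. Levels are CPM, counts scaled to library size after TMM normalization, on which a single read pair weighed 0.0859 CPM in WD9 and 1.19 CPM in CON13. CON13 and WD15 also had the shortest library fragments. Results were therefore also computed without CON13 and WD6, and without CON13 and WD15.

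The transcript of C1QA rose in WD, and all 5 genes had higher mean CPM in WD than in control. C1QA was the only member that passed an adjusted p of 0.05 in edgeR's quasi-likelihood test, with an estimated 3.09-fold level in WD. The other 4 members had estimates between 2.18-fold and 2.78-fold and did not pass. The median log2 fold change of the 5 members was 1.44, against 0.02 over all 14432 genes tested, of which 39 (0.27%) were called higher in WD. The symbols of these 5 genes come from a table ordered by p-value and held here only for its lowest p-values, and the study had called genes in these same libraries, so the members' share and median are a description and not independent evidence of direction.

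**Figure D1:**
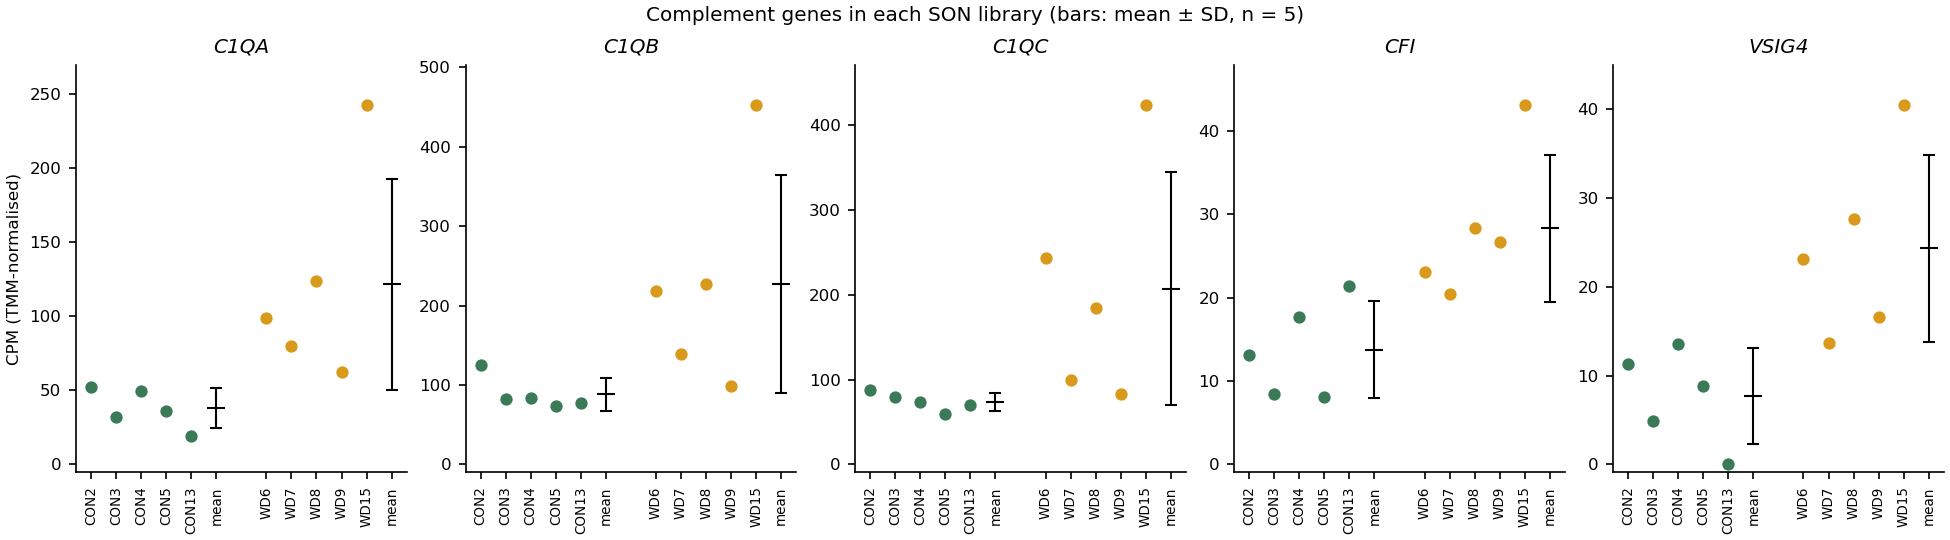
CPM (linear axis from 0) of each member in each of the 5 control libraries (green) and 5 WD libraries (yellow), with mean and SD (black). WD15 is the highest library in every panel, the WD points lie above every control point for C1QA and VSIG4, and for C1QB, C1QC and CFI a WD library lies under the highest control library.

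C1QA (ENSCDRG00005014427) encodes the A chain of C1q. Its level in the control libraries was 52.0 CPM in CON2, 32.2 in CON3, 49.8 in CON4, 36.4 in CON5 and 19.0 in CON13. In the WD libraries it was 98.6 CPM in WD6, 80.0 in WD7, 124 in WD8, 62.7 in WD9 and 242 in WD15. Every WD library lay above every control library, which held for 194 of the 14432 genes tested (1.34%). The lowest level, in CON13, rested on 16 read pairs. The mean was 37.9 ± 13.5 CPM in control and 122 ± 71.3 CPM in WD (SD, n = 5), and the log2 fold change was 1.63 (SE 0.32, edgeR adjusted p = 0.0232).

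C1QB (ENSCDRG00005014476) encodes the B chain. Control levels were 125 CPM in CON2, 82.6 in CON3, 83.6 in CON4, 74.1 in CON5 and 77.3 in CON13. WD levels were 219 CPM in WD6, 139 in WD7, 227 in WD8, 99.1 in WD9 and 452 in WD15. The groups overlapped through CON2, which stood far above the other controls, and WD9. The means were 88.5 ± 20.7 CPM and 227 ± 137 CPM (SD, n = 5), with a log2 fold change of 1.35 (SE 0.31) that did not pass the threshold (edgeR adjusted p = 0.0707).

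C1QC (ENSCDRG00005014455), for the C chain, was measured at 87.9 CPM in CON2, 80.0 in CON3, 73.3 in CON4, 59.4 in CON5 and 70.2 in CON13. Among WD libraries it was 244 CPM in WD6, 100.2 in WD7, 184 in WD8, 83.7 in WD9 and 424 in WD15. Again WD9 fell within the control range, while the other 4 WD libraries lay above it. Control libraries were close to each other for this gene and WD libraries spread 5.06-fold from lowest to highest. The mean was 74.1 ± 10.7 CPM in control and 207 ± 137 CPM in WD (SD, n = 5), a log2 fold change of 1.48 (SE 0.34, edgeR adjusted p = 0.0683).

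CFI (ENSCDRG00005009663), the protease that restrains the cascade, was much less counted, with 327 read pairs in all control libraries and 914 in all WD libraries. Its level was 13.2 CPM in CON2, 8.47 in CON3, 17.7 in CON4, 8.15 in CON5 and 21.4 in CON13. It was 23.1 CPM in WD6, 20.4 in WD7, 28.4 in WD8, 26.6 in WD9 and 43.1 in WD15. The groups overlapped only through CON13, the highest control, and WD7, the lowest WD library. CON13 thus had the lowest C1QA and the highest CFI among controls, on 16 and 18 read pairs. Means were 13.8 ± 5.78 CPM and 28.3 ± 8.81 CPM (SD, n = 5), and the log2 fold change of 1.12 (SE 0.28) did not pass (edgeR adjusted p = 0.107).

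VSIG4 (ENSCDRG00005013180), the macrophage receptor, had 254 read pairs in all control and 726 in all WD libraries. Its level was 11.3 CPM in CON2, 4.94 in CON3, 13.6 in CON4 and 8.88 in CON5. No read pair was counted in CON13, which at its depth allows a level of up to 3.57 CPM (3 counts, counting error only). In WD it was 23.1 CPM in WD6, 13.7 in WD7, 27.7 in WD8, 16.6 in WD9 and 40.4 in WD15. The groups did not overlap, as for 194 of the 14432 genes tested (1.34%), but CON4 and WD7 were almost at the same level. The means were 7.73 ± 5.37 CPM and 24.3 ± 10.5 CPM (SD, n = 5), with a log2 fold change of 1.44 (SE 0.38, edgeR adjusted p = 0.147).

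WD15 was the highest WD library for all 5 members. WD9 was the lowest for the 3 C1q chains, and WD7 the lowest for CFI and VSIG4. Without WD15 the log2 fold changes were 1.22 for C1QA, 0.94 for C1QB, 1.03 for C1QC, 0.93 for CFI and 1.18 for VSIG4, and C1QA still passed (edgeR adjusted p = 0.0491).

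How many members passed depended on the fit, while the estimates stayed above 0 in each fit that gave one (VSIG4 could not be fitted with at least 10 counts in every library). DESeq2's Wald test called all 5, with adjusted p-values of 3.99e-04 for C1QA, 0.00532 for C1QB, 0.00431 for C1QC, 0.0317 for CFI and 0.0314 for VSIG4. It called 105 of 16447 genes higher in WD (0.638%). This is the test that the study itself ran on these libraries, and its lowest p-values supplied the members' symbols. The 5 calls were thus in part fixed in advance and are not independent of the study's calls. With the depth group of a library as a covariate edgeR called C1QA, C1QB, C1QC and CFI, and 0.845% of all genes tested were higher. Scaling by library totals alone moved the median log2 fold change of all genes to 0.16. It left 0 members and 10 of the 14432 genes tested called by edgeR. All 5 members were at an unadjusted p under 0.05 in that fit, as were 441 of the 14432 genes. With no filter on low counts edgeR called the 3 C1q chains, and 0.182% of all genes tested were higher.

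C1QA lost its call without CON3 (edgeR adjusted p = 0.133), without CON5 (0.0875), without CON13 (0.0755) and without WD8 (0.0673). Without CON13 and WD6 edgeR called 0 members and 88 of 14909 genes, and C1QA had a log2 fold change of 1.55. Without CON13 and WD15 edgeR also called 0 members, and 33 of 14924 genes. There the members' log2 fold changes lay between 0.89 for C1QB and 1.09 for C1QA. All 5 members had an unadjusted p under 0.05 in both of these fits, as had 1801 of 14909 genes in the first and 848 of 14924 in the second, and their pairing through low p-values in the same libraries in part fixes that count. With the RNA integrity number (RIN) of each sample as a covariate the log2 fold change was 1.22 for C1QA (SE 0.26, edgeR adjusted p = 0.0360) and 0.88 for C1QB (SE 0.19, adjusted p = 0.0415), both called, and 0.485% of all genes tested were called higher. In that fit C1QC had 0.90 (SE 0.23) and was not called, nor were CFI at 0.97 and VSIG4 at 1.10. The values of C1QB and C1QC were over 1.5 times less than without RIN.

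**Figure D2:**
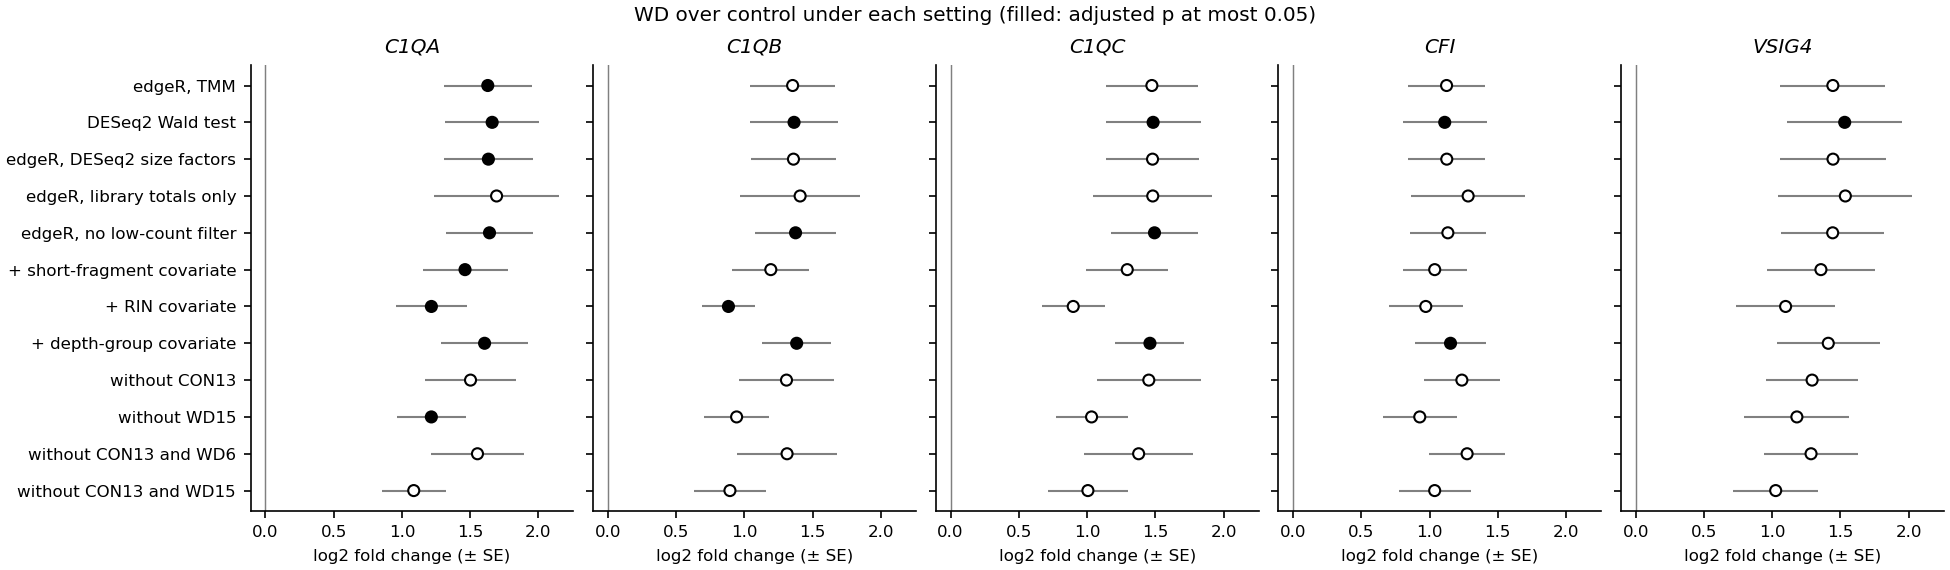
Log2 fold change of WD over control (x axis, bars are SE) of each member under several fits, filled where the adjusted p was at most 0.05. All estimates lie above 0, and DESeq2's Wald test fills all 5 points in its line. The smallest C1q values drawn are those with RIN as a covariate and those without WD15, left out alone or together with CON13.

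The proportions of the 3 C1q chains to each other did not differ detectably between conditions. Of the summed C1q counts of a library, C1QA took 18.6% ± 4.87 in control and 22.6% ± 3.19 in WD, C1QB 44.0% ± 2.78 and 41.2% ± 1.84, and C1QC 37.4% ± 3.98 and 36.2% ± 4.64 (SD, n = 5). These are shares of read pairs with no correction for transcript length, so they are compared between conditions and not between chains. CON13 had the lowest share of C1QA, 11.4% of 140 C1q read pairs (exact 95% binomial interval 6.68% to 17.9%, counting error only).

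**Figure D3:**
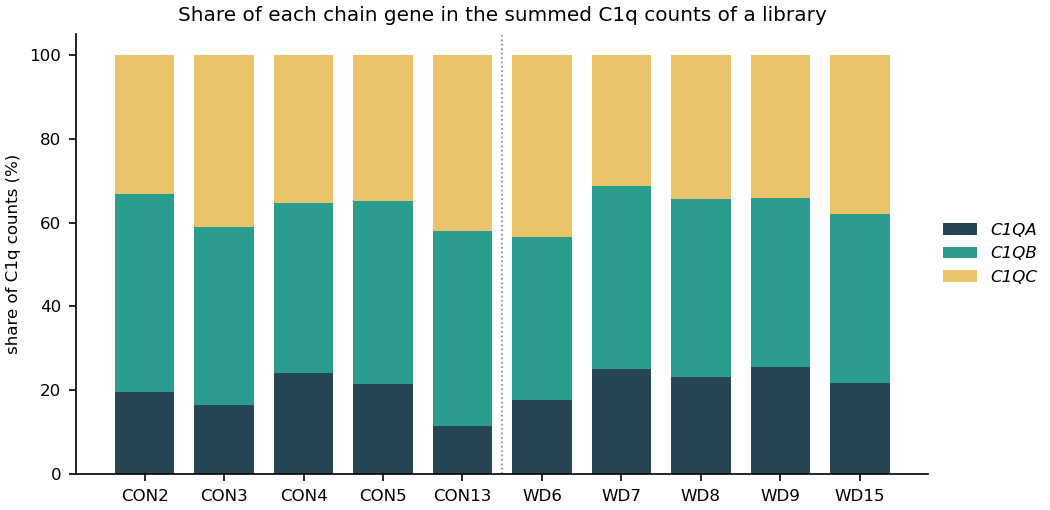
Share (%) of C1QA, C1QB and C1QC in the summed C1q counts of each library, control left of the dotted line and WD right of it. The share of C1QA runs from 11.4% in CON13 to 25.5% in WD9, and C1QB takes between 39.0% and 47.2%.

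As log2 ratios of counts (with 0.5 added), none of the 10 pairs of members differed between conditions in an exact permutation test. The smallest p was that of C1QA over C1QB, which was -1.28 ± 0.46 in control and -0.88 ± 0.18 in WD (SD, n = 5, exact permutation p = 0.0952, adjusted over the 10 pairs 0.741). C1QB over C1QC was at 0.24 ± 0.18 in control and 0.19 ± 0.24 in WD, a difference of -0.05 (exact permutation p = 0.738). This ratio ran from -0.16 in WD6 to 0.51 in CON2. With 5 against 5 libraries the exact permutation p cannot be under 0.0079. After adjustment over the 10 pairs, 1 fully separated pair alone could therefore not pass 0.05.

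The ratio of C1QA to CFI, activator to inhibitor, was 1.47 ± 0.95 in control and 1.98 ± 0.46 in WD (SD, n = 5, exact permutation p = 0.381). That of C1QB to CFI was 2.75 ± 0.67 and 2.85 ± 0.59 (exact permutation p = 0.841), and that of C1QC to CFI 2.51 ± 0.63 and 2.66 ± 0.72 (exact permutation p = 0.675). No change in the balance of C1q to CFI transcripts was thus detectable, with SDs of up to 0.95 within a group. Without CON13 the difference of C1QA over CFI between conditions was 0.097 in place of 0.51, and that of C1QA over C1QB was 0.22 in place of 0.40. The 4 ratios to VSIG4 were all lower on average in WD, by 0.51 to 1.01, and all rest on CON13, where VSIG4 had no count. CFI over VSIG4 was 5.21 in CON13 and between -0.12 and 0.76 in the other 4 controls, and 0.00 to 0.68 in WD. Without CON13 these 4 differences lay between -0.16 and 0.06.

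Over the 10 libraries the log2 CPM of C1QB and C1QC were closer to each other than to any of the other genes compared (Pearson r = 0.977 over 10 libraries, among 11493 genes with at least 10 counts in 9 libraries). By deviations from the group means each was only in place 5 for the other, and C1QB was nearer to CSF1R, the growth factor receptor of microglia (r = 0.991), than to C1QC. C1QA ran closer to C1QB (r = 0.932) than to C1QC (r = 0.887). CFI had r between 0.699 and 0.737 with the 3 chains, and CFI and VSIG4 had r = 0.232. The last value includes CON13, where VSIG4 had no count and CFI, on 18 read pairs, was highest among controls. The log2 ratio of CFI to VSIG4 was 5.21 in CON13, against -0.12 to 0.76 in the other controls and 0.00 to 0.68 in WD. No r was computed without CON13. The 10 libraries share the contrast of WD and control and differ in depth, so the values are a description. The same correlation of deviations from the group means was 0.954 for C1QB and C1QC, 0.236 for C1QA and CFI, and -0.355 for CFI and VSIG4. The values with CFI include CON13, which among controls was lowest for C1QA and VSIG4 and highest for CFI.

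The genes with a symbol most like the mean of the 3 C1q chains were TYROBP (r = 0.978), THBS2 (0.968), ALOX5AP (0.964), ADA2 (0.963) and ARHGDIB (0.960), over the same 10 libraries. TYROBP encodes an adaptor of microglial receptors and ALOX5AP a protein of leukotriene synthesis in myeloid cells. THBS2 encodes an extracellular matrix protein, ADA2 a secreted adenosine deaminase of monocytes and macrophages, and ARHGDIB a regulator of small GTPases in blood cell lineages. TYROBP ran from 4.66 to 6.12 CPM in control and from 6.62 to 24.4 CPM in WD, with WD15 highest and WD9 lowest in WD as for the C1q chains.

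Nearest to CFI among genes with a symbol were SLC39A8, a metal ion transporter (r = 0.957), CTSC, a lysosomal protease (0.939), and TMEM87B (0.933). Those with a symbol nearest to VSIG4 were TLR10 (r = 0.989), WBP4 (0.978) and DAZAP2 (0.977). TLR10, a Toll-like receptor, also had no count in CON13, the library farthest from the others for VSIG4.

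Since C1q in brain comes from microglia and macrophages, other genes of these cells were read beside it. Of 28 such genes listed, 23 could be paired with an ID and tested. Of these, 14 had been paired whatever their test result and 9 only through the table of low p-values. EdgeR called 0 of the 23, with 18 at an unadjusted p under 0.05. DESeq2 called 1, CTSS, which encodes a lysosomal protease, against 0.638% of all genes called higher in WD. All 23 had log2 fold changes above 0, with a median of 0.90, as had 7491 of all 14432 genes tested. In 4 of the 23, TYROBP, CTSS and ALOX5AP included, every WD library lay above every control library, which held for 194 of the 14432 genes (1.34%). Over the 14 genes paired whatever their test result, 9 had an unadjusted p under 0.05, against 1344 of all 14432 genes tested. Their median log2 fold change was 0.81 and the highest was 1.09, for ALOX5AP. CSF1R had a log2 fold change of 0.62 (SE 0.26, edgeR adjusted p = 0.468).

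The summed level of these 14 genes was 496 CPM in CON2, 323 in CON3, 323 in CON4, 329 in CON5 and 341 in CON13. In WD it was 538 CPM in WD6, 386 in WD7, 619 in WD8, 399 in WD9 and 1161 in WD15. Microglia and macrophage genes were therefore also highest in WD15, and CON2 lay above WD7 and WD9. The summed level of the 3 C1q chains ran from 166 to 265 CPM in control and from 245 CPM in WD9 to 1118 CPM in WD15. CD163, a scavenger receptor of border-associated macrophages and the only gene of that list of 8 with an ID, was at 47.6 to 143 CPM in control and 84.9 to 464 CPM in WD (log2 fold change 1.46, SE 0.38, edgeR adjusted p = 0.139). The part of cell numbers in the members' levels was not tested.

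The members were also read against the summed counts of the 14 genes. The members were paired with an ID only through low p-values in these libraries and the 14 reference genes were paired whatever their test result, so a larger difference in the members is in part fixed by that choice, and the ratios are given as a description. The log2 ratio of C1QA to them was -3.25 in CON2, -3.32 in CON3, -2.70 in CON4, -3.17 in CON5 and -4.12 in CON13. In WD it was -2.44 in WD6, -2.27 in WD7, -2.32 in WD8, -2.67 in WD9 and -2.26 in WD15. The groups did not overlap, with WD9 just above CON4. The means were -3.31 ± 0.51 and -2.39 ± 0.17 (SD, n = 5), a difference of 0.92, or 0.72 without CON13.

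C1QB gave a difference of 0.52, from -2.04 ± 0.10 in control to -1.52 ± 0.28 in WD (SD, n = 5), and 4 of 5 WD libraries lay above all controls while WD9 at -2.01 lay among them. C1QC gave 0.57, from -2.28 ± 0.21 to -1.71 ± 0.43, again with WD9 among the controls. CFI gave 0.41, from -4.78 ± 0.66 to -4.37 ± 0.32, with overlapping groups. VSIG4 gave 1.43, from -6.08 ± 1.80 to -4.65 ± 0.17, and 0.65 without CON13, and the groups overlapped, with 2 of 5 WD libraries above all controls and CON4 at -4.57 above WD7, WD9 and WD15.

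**Figure D4:**
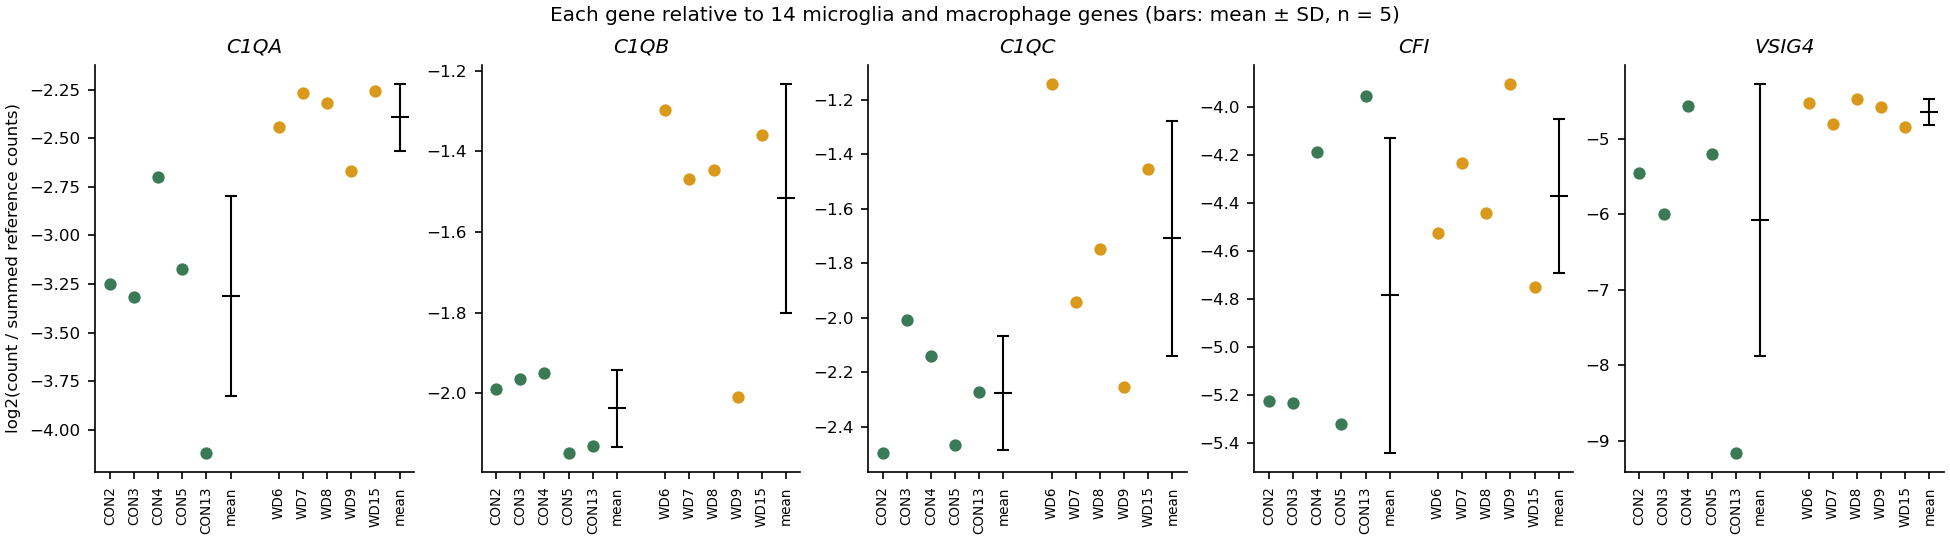
Log2 ratio of the count of each member (with 0.5 added) to the summed counts of 14 microglia and macrophage genes in every library, control in green and WD in yellow, with mean and SD in black; axes do not start at 0. C1QA separates the groups, WD9 lies among the controls for C1QB and C1QC, CFI overlaps, and CON13 at -9.16 stands far below the other points for VSIG4.

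Other cell types were covered by few paired genes. Blood cells had 2 of 13 genes with an ID, HBB and CSF3R, with a summed level of 2.17 to 19.0 CPM in control and 1.55 to 5.65 CPM in WD. Vessels and fibroblasts had 8 of 15, at 335 to 594 CPM in control and 313 to 619 CPM in WD, with 5 of the 8 log2 fold changes above 0, 3 below and a median of 0.16. EdgeR called 1 of the 8, COL1A1, a collagen chain, which fell by 1.04 on the log2 scale (SE 0.21, edgeR adjusted p = 0.0239), against 33 of 14432 genes (0.229%) called lower in WD. The 2 astrocyte genes paired summed to 70.2 to 89.9 CPM in control and 83.1 to 147 CPM in WD, and the 3 oligodendrocyte genes to 50.3 to 116 CPM and 39.0 to 93.4 CPM. No gene of the neurone list could be paired, so the neuronal share of the punches was not checked.

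None of the other complement genes that could be tested was called, apart from C1QL4, a relative of C1q outside the cascade. Of 24 components and proteases 8 were paired with an ID and 7 tested, 5 with log2 fold changes above 0 and 2 below, with a median of 0.26. EdgeR and DESeq2 both called 0 of them, and 3 had an unadjusted p under 0.05 in edgeR, or 2 of the 6 that were paired whatever their test result, against 1344 of all 14432 genes. C3 was at 734 CPM in CON2, 270 in CON3, 319 in CON4, 539 in CON5 and 238 in CON13. In WD it was at 823 CPM in WD6, 574 in WD7, 1006 in WD8, 349 in WD9 and 1629 in WD15. WD15 was again highest and WD9 lowest in WD, and the groups overlapped. The means were 420 ± 211 CPM and 876 ± 489 CPM (SD, n = 5), with a log2 fold change of 1.06 (SE 0.36, edgeR adjusted p = 0.314).

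C1R and C1S encode the proteases that bind C1q. C1R was at 15.3 ± 3.66 CPM in control and 23.0 ± 6.76 CPM in WD (SD, n = 5), a log2 fold change of 0.55 (SE 0.23, edgeR adjusted p = 0.471). C1S was at 21.8 ± 4.37 CPM and 27.5 ± 6.23 CPM, a log2 fold change of 0.36 (SE 0.21, edgeR adjusted p = 0.635). Both genes overlapped between groups, and WD8, not WD15, held the highest level of each.

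Among 30 complement regulators and receptors, 10 were paired and 9 tested, 7 above 0 and 2 below, with a median of 0.59. EdgeR and DESeq2 called 0 of them, and 7 had an unadjusted p under 0.05 in edgeR, or 3 of the 5 that were paired whatever their test result, against 1344 of all 14432 genes. SUSD4, which encodes a membrane inhibitor of complement, had the smallest p among them. It ran from 40.0 to 64.2 CPM in control and from 19.9 CPM in WD15 to 36.6 CPM in WD9, so every WD library lay below every control library, which held for 184 of the 14432 genes tested (1.27%). Its log2 fold change was -0.68 (SE 0.20, edgeR adjusted p = 0.210). ITGAM and ITGB2, the chains of complement receptor 3 and named for that role after their values were seen, had log2 fold changes of 0.90 (SE 0.32) and 0.96 (SE 0.36) and were not called.

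Genes of the C1q domain family other than C1q itself had estimates below 0. Of 25 listed, 6 were paired and 5 tested, all 5 below 0 with a median of -1.12, and 6941 of all 14432 genes tested were below 0. C1QL4 was the only one of the 5 called, against 0.229% of all genes called lower in WD. C1QL4, which encodes a secreted C1q-like protein, was at 5.69 ± 3.93 CPM (SD, n = 5) in control, with 2.97 CPM or more in each library, and in WD it had no count in WD6, WD9 and WD15 and 8 read pairs in all. It fell by 4.35 on the log2 scale (SE 0.81, edgeR adjusted p = 0.0169). C1QTNF1 was at 6.84 to 15.5 CPM in control and 4.14 to 6.61 CPM in WD, with a log2 fold change of -0.98 (SE 0.30, edgeR adjusted p = 0.229). All 5 of these tested genes were paired only through the table of low p-values, which cannot hold family members with high p-values.

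**Figure D5:**
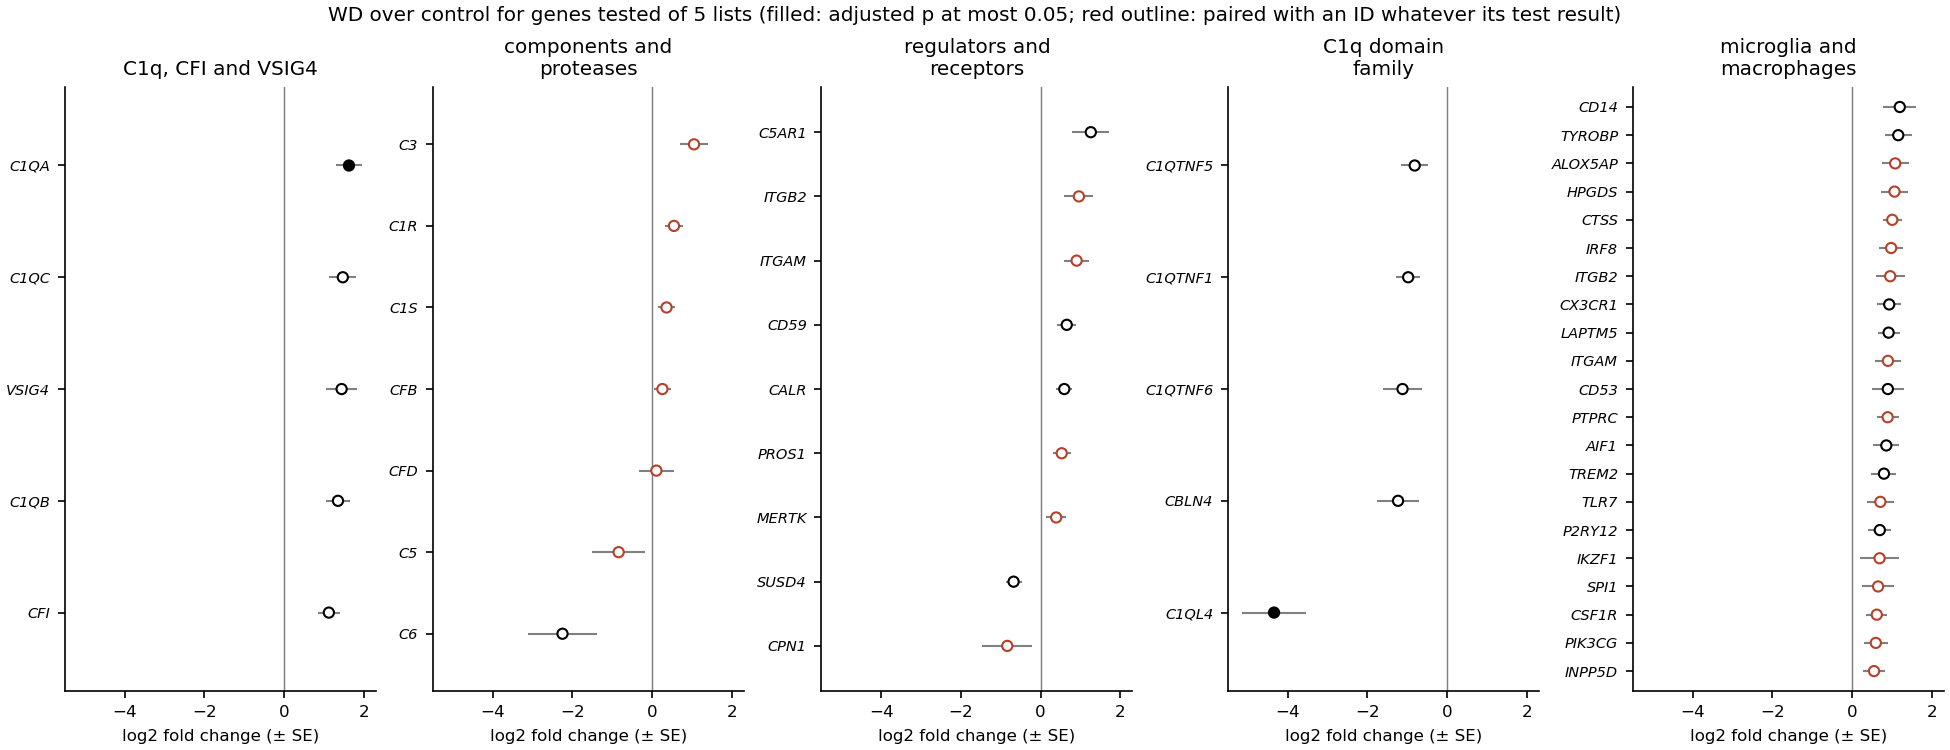
Log2 fold change of WD over control (x axis, bars are SE) of genes tested in 5 lists, filled where the edgeR adjusted p was at most 0.05, with a red outline for genes paired with an ID whatever their test result. C1QA and C1QL4 are the filled points, the 21 microglia and macrophage genes drawn all lie above 0, and the 5 C1q domain family genes all lie below it.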

How the data were processed

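The authors merged and trimmed reads with BBDuk, aligned them with STAR to Camdro2 and counted read pairs per gene with featureCounts. The deposited counts are whole numbers without normalization. The authors also deposited a normalized signal, each count divided by a DESeq2 size factor, which was not used for tests. The annotation release and the strand setting are not given in the sources used here, so overlapping genes are uncertain.

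Counts were compared with edgeR 4.0.16 in R 4.3.3 (quasi-likelihood F test, robust fit, TMM factors, filterByExpr), adjusted by Benjamini-Hochberg across all genes tested, with a threshold of 0.05. The SE is the log2 fold change over the square root of F. DESeq2 1.42.0 (Wald test), the test the study used, was an alternative. The test was checked on simulated counts. Ratios were log2 of (count + 0.5), compared by two-sided exact permutation over 252 assignments with scipy 1.17.1. The edgeR p-values set a group difference against the spread between these camels, moderated across genes. The permutation p-values come from reassigning the group labels. Covariates RIN and fragment length were taken from the study's sample sheet.

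Symbols pair 4351 of 22444 IDs. The complete tables pair 3038 of them whatever their test result, 1204 more come only from the table of the 1819 lowest p-values, and 109 only from tables held here in part. The members, lists and tests were chosen with earlier results of these data known. Named genes were the members, C3, C1R, C1S, called genes, the 3 smallest p-values over the 3 complement and C1q family lists, and those nearest in Pearson r. CSF1R, CD163, ITGAM, ITGB2, HBB, CSF3R and CTSS were named outside this rule, after their values were seen. The exact test was also run on ratios to microglia and macrophage genes, but its p-values are not given, since the members were paired through low p-values in these libraries and the reference was not. The study's qRT-PCR was not analysed here. Alternatives were other normalizations, filters and covariates, each library left out in turn and, added after seeing the data, pairs of libraries left out. Results on some genes are not reported here.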

Additional observations from a re-analysis of the deposited data

Results flagged for a closer look

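Of 40 groups of 5 libraries examined, 5 had a library whose gap to the nearest other library, divided by the group's whole range, was above the limit of 0.71 for 5 samples. Chance alone flags about 1 in 20 groups, and the groups share libraries and genes.

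C1QB in CON2 was at 124.8 CPM, while the other controls lay between 74.1 and 83.6 CPM. The log2 ratio of C1QA to CFI in CON13 was -0.17, against 1.49 to 2.15 in the other controls. That of C1QA to VSIG4 in CON13 was 5.04, against 1.87 to 2.68, and that of CFI to VSIG4 was 5.21, against -0.12 to 0.76. CON13 had 16 read pairs of C1QA, 18 of CFI and none of VSIG4, and was the shallowest library. The log2 ratio of C1QB to the 14 microglia and macrophage genes was -2.01 in WD9, against -1.47 to -1.30 in the other WD libraries. The part of depth in these values was not tested.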

How the results depend on the processing

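No paired analysis was possible because control and WD libraries share no camel numbers. The members had log2 fold changes above 0 in every fit that gave one, all but 1 fit for VSIG4, which could not be fitted with at least 10 counts in every library. With library totals only, C1QA was at 1.69, and 0 members and 10 genes were called. With DESeq2's Wald test, the study's own test, all 5 members and 209 genes were called against 72 by edgeR (C1QB 1.36, C1QC 1.48, CFI 1.11, VSIG4 1.53). With no filter 3 members and 74 of 21986 genes were called (C1QB 1.37, C1QC 1.49), with RIN as a covariate 2 members and 104 of 14432 genes (C1QB 0.88), and with depth group as a covariate 4 members and 224 genes (C1QB 1.38, C1QC 1.46, CFI 1.15). Fits chosen after seeing the data left out CON13 and WD6 (0 members called, C1QA 1.55, 88 genes) or CON13 and WD15 (0 members, C1QA 1.09, 33 genes). The cause was not tested.

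With each library left out in turn, 0 to 3 members and 40 to 102 genes were called, with 3 members without WD9 and 2 without WD7, and log2 fold changes of 1.22 to 1.80 for C1QA, 0.94 to 1.54 for C1QB and 1.03 to 1.68 for C1QC. CFI and VSIG4 were not called in any of these 10 fits. Relative to the microglia and macrophage genes the differences were 0.72 to 1.07 for C1QA, 0.47 to 0.64 for C1QB, 0.43 to 0.70 for C1QC, 0.28 to 0.62 for CFI and 0.65 to 1.80 for VSIG4, all above 0. With the mean log2 count of the reference in place of the sum, C1QC gave 0.53.

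C1QA over CFI lay between 0.097 and 0.69 and C1QA over C1QB between 0.22 and 0.53 with a library left out, both lowest without CON13. Differences of 4 other ratios changed sign with a library left out: C1QB over C1QC ran from -0.12 to 0.039, C1QB over CFI from -0.12 to 0.35, C1QC over CFI from -0.051 to 0.41 and C1QA over VSIG4 from -0.73 to 0.063. Without a pseudocount and without CON13, C1QA over VSIG4 was 0.055.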
